A study of Homo sapiens with 24 samples.

Results

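ChIP-seq, the sequencing of DNA recovered with an antibody from sheared chromatin, was compared between METTL7A-expressing and wild-type HCC827 cells that were resistant to osimertinib. HCC827 is a human lung adenocarcinoma line whose EGFR gene is mutated and amplified, and osimertinib is an inhibitor of mutant EGFR. The comparison was chosen by 2 peak lists, both precipitated with an antibody to the MYC tag. It holds all 3165 peaks of the METTL7A list and all 2767 peaks of the wild-type list, 5932 of the 13347 peaks in the 8 lists of the series. The METTL7A cells carried the genotype METTL7A-MYC-tag-FLAG, and the other cells are labelled wild-type. Both groups were kept in 1 µM osimertinib, so the drug and the resistant state are shared by every value of this comparison. Each group had 2 samples that the labels call biological replicates, and the study has 24 samples in 12 groups in all. The sources used here do not give the promoter that drives the tagged gene, or say whether a line is 1 clone.

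METTL7A, listed as TMT1A in the RefSeq gene table, encodes a membrane-associated methyltransferase that is known from the endoplasmic reticulum and lipid droplets and is not known as a DNA-binding factor. The MYC tag is a short stretch of the human transcription factor MYC. An antibody to it can therefore bind MYC itself in cells without the tag. MYC pairs with MAX and binds the E-box CACGTG, often near the starts of genes for growth and metabolism. DNA present in many copies, such as an amplified EGFR locus, gives more reads in any library, whatever was precipitated.

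Each list pairs peaks of 2 replicates and gives every pair an irreproducible discovery rate (IDR), which is low where the pair ranks high in both. A peak here is one such line. "Matched" means any line of a list. "Reproducible" means a line with a global IDR of 0.05 or less. Height is the lower of the peak caller's −log10 p-values in the 2 replicates. Heights are the authors' values, share no scale between lists and come without the read depth of the libraries, which is unknown. One list joins both replicates of its group and has no replicate error. No test was run, and shares carry exact (Clopper-Pearson) 95% intervals that cover counting error only. Neighbouring peaks are not independent, so these intervals can be too narrow.

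Several results turn on peaks at gene starts, so the sequences upstream of 5 of those starts are shown. The start of CDK4, a kinase gene of the cell cycle, was in both lists. The starts of TBK1, an innate immune kinase gene, SEC61G, a gene of the protein translocation channel, and CACHD1, a gene of a calcium channel regulator, were in the wild-type list only. The start of PIP4K2C, a phosphoinositide kinase gene, was in the METTL7A list only. Each sequence is the 250 bases before the start in RefSeq's GRCh38.p14, read 5′ to 3′ on the gene's strand, with the E-box CACGTG in capitals.
CDK4 (chr12:57752311-57752560, minus strand): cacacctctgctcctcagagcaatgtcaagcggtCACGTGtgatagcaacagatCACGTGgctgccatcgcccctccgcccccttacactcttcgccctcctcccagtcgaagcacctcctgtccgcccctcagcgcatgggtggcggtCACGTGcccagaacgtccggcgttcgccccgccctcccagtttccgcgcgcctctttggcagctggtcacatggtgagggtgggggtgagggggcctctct
TBK1 (chr12:64451870-64452119, plus strand): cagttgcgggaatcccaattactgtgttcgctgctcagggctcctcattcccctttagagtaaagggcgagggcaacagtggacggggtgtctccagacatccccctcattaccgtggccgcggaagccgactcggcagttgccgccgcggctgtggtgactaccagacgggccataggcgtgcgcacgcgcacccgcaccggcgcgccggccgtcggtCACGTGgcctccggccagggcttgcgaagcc
SEC61G (chr7:54759212-54759461, minus strand): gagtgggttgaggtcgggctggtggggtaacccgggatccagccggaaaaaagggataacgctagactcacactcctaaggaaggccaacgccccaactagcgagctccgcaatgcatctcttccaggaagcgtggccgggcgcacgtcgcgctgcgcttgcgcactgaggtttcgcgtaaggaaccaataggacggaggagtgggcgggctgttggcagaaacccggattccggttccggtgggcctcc
CACHD1 (chr1:64469879-64470128, plus strand): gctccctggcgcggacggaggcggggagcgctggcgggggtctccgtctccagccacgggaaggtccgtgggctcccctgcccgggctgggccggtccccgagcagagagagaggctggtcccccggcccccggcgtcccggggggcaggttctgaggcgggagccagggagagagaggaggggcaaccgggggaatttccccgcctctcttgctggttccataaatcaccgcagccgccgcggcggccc
PIP4K2C (chr12:57590942-57591191, plus strand): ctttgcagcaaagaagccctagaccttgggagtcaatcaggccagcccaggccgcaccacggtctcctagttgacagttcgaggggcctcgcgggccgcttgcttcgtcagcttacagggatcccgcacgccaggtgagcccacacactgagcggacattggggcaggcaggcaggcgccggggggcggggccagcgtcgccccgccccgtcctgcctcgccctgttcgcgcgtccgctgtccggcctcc
CDK4 carried 3 E-boxes, whose first bases lay 216, 196 and 101 bases before the start. TBK1 carried 1, whose first base lay 31 bases before the start. The other 3 windows held none. Of 35116 RefSeq promoters searched over the same length, 2228 (6.34%) held CACGTG, which reads the same on both strands. Windows were read for 6 of the wild-type-only starts described here, and TBK1 was the only one of these with the motif. The windows of the others, such as LANCL2 and VSTM2A, were not examined. A match is only a match of letters. The GC content of the 5 windows shown ran from 62.4% at SEC61G to 74.8% at CACHD1, against a median of 58% over all promoters. MDFIC, a wild-type-only start not shown, had 52.8%.

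METTL7A-expressing cells had slightly more matched peaks and clearly more high ones. The ratio of METTL7A to wild-type peaks was 1.14 for matched peaks (3165 and 2767), 2.28 at a height of 5 or more (1246 and 547) and 2.04 at a height of 9 or more (98 and 48). Of the METTL7A peaks 104 (3.29%) were reproducible, and of the wild-type peaks 63 (2.28%), a ratio of 1.65. This excess depended on which wild-type replicate was read. At a −log10 p of 9 or more, the METTL7A list had 215 peaks by the first replicate in the file and 280 by the second. The wild-type list had 256 and 118. The METTL7A counts were thus below the first wild-type count in 1 case of 2 and above the second in both. Nothing in the files says which sample fills which position, so the 2 replicates of a list are called the first and the second as the file orders them.

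The METTL7A peaks also lay closer together and were wider. Their median width was 685 bp, against 595 bp in wild-type cells. The median gap between neighbours was 90.9 kb and 290 kb, and 693 gaps (21.9%) were under 10 kb in the METTL7A list against 305 (11%) in the wild-type list. Spearman's correlation between the 2 replicates' heights was low in both lists, at 0.159 over the METTL7A and 0.163 over the wild-type peaks, which are not independent of each other. At the IDR threshold, the last reproducible METTL7A peak, in EGFR (7:55237675–55238532 in GRCh37), had −log10 p-values of 9.79 and 9.51. The first beyond it, in LANCL2 (7:55495431–55496104), had 15.8 and 8.45. In the wild-type list the last reproducible peak (12:65308973–65309457) had 12.6 and 8.55, and the first beyond it (7:54727802–54729064) had 13.9 and 7.96. These neighbours show how little height separates peaks on either side of the threshold.

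Most matched peaks of either list were absent from the other, while most reproducible ones overlapped a matched peak of the other list. Of the METTL7A peaks, 260 (8.21%, 7.28 to 9.23) overlapped a wild-type peak by at least 1 bp, and 261 wild-type peaks (9.43%, 8.37 to 10.6) overlapped a METTL7A peak. Among reproducible METTL7A peaks 69 of 104 overlapped a matched wild-type peak (66.3%, 56.4 to 75.3). Among reproducible wild-type peaks 41 of 63 overlapped a matched METTL7A peak (65.1%, 52 to 76.7). With both peaks reproducible, the overlap was 24% of the METTL7A and 38.1% (26.1 to 51.2) of the wild-type peaks.

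**Figure D1:**
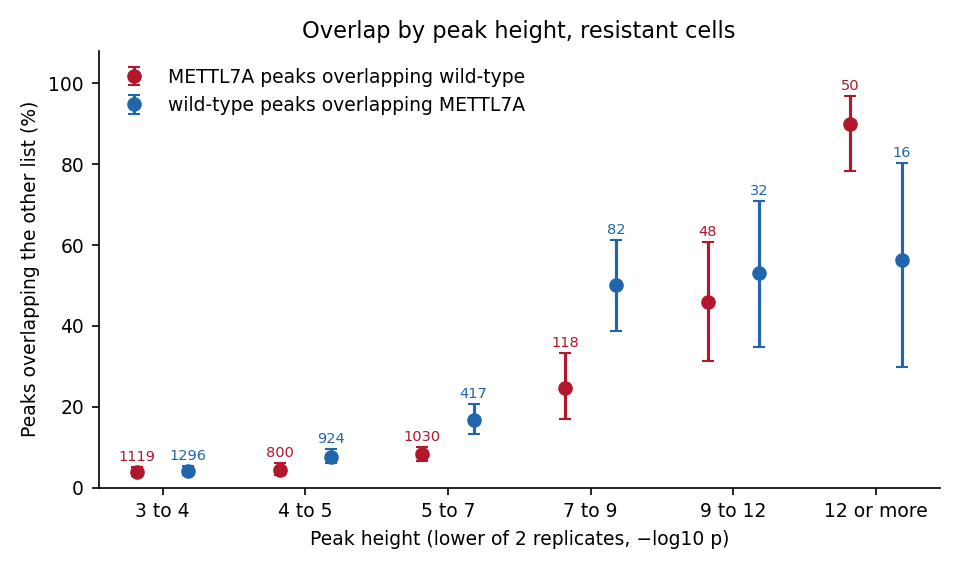
Share of peaks that overlap the other list (y axis, percent) by peak height (x axis, −log10 p), for METTL7A peaks (red) and wild-type peaks (blue). Points are shares, bars are exact 95% intervals and numbers are peaks per class; the METTL7A share climbs from 3.93% to 90%, and the wild-type share levels off at 50% to 56.2%.

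The shares rose with height in both lists, but differently at the top. METTL7A peaks of height 3 to 4 overlapped a wild-type peak in 3.93% of cases, those of 7 to 9 in 24.6%, and those of 12 or more in 90% (45 of 50, 78.2 to 96.7). Wild-type peaks rose from 4.09% at 3 to 4 to 50% at 7 to 9, and 9 of 16 overlapped at 12 or more (56.2%, 29.9 to 80.2). The intervals of the highest classes overlap by a small margin. No wild-type match was found for 5 METTL7A peaks of 12 or more, and no METTL7A match for 7 wild-type ones. Each of these is described among the one-list peaks.

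At the 260 shared positions the METTL7A height was the larger at 173 and the smaller at 87. The median height was 6.13 in METTL7A and 5.22 in wild-type cells, and the median difference was 0.877 (quartiles −0.712 to 3.67). The median gap between the replicates of one list was larger, at 2.28 for METTL7A and 3.62 for wild-type. Both METTL7A replicates lay above both wild-type replicates at 54 positions and below both at 30, and at the other 176 the replicates of the lists overlapped. Heights share no scale, so each was also ranked within its own list. By percentile the METTL7A peak was the higher at 147 of the 260 positions, with a median difference of 0.976 percentile points.

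The direction turned with the wild-type replicate. Over the shared positions the median −log10 p was 7.18 and 7.07 in the first and second METTL7A replicates, and 9.11 and 5.76 in the wild-type ones. The first METTL7A replicate was lower than the first wild-type replicate by a median of 0.863, and higher at 113 of 260 positions. Against the second wild-type replicate, the second METTL7A replicate was higher by a median of 2.07, at 183 positions. Pairing the replicates the other way gave −1.17 against the first wild-type replicate and 2.06 against the second. The METTL7A replicates thus lay between the wild-type ones, and the larger METTL7A height comes with a wild-type second replicate that was below its first at 203 of 260 positions. The same held in the EGFR region, where the medians at 93 shared positions were 12.3 and 11.4 in METTL7A and 15.8 and 7.09 in wild-type cells.

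**Figure D2:**
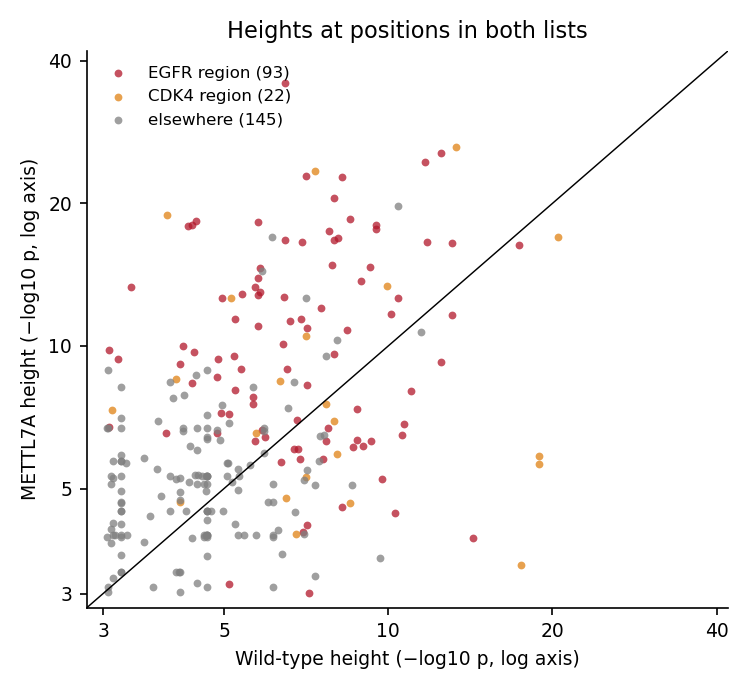
Height in the METTL7A list (y axis) against height in the wild-type list (x axis) at the 260 shared positions, both as −log10 p on log axes, with the line of equal height. Red points are the EGFR region (93), orange the CDK4 region (22) and grey the rest (145); 173 points lie above the line, with the highest METTL7A value at 35.9 over a wild-type 6.46.

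Positions near EGFR led the shared peaks. The highest METTL7A peak lay in EGFR, the receptor tyrosine kinase gene, within its first intron (7:55145228–55147646), with −log10 p-values of 35.9 and 39.4 in METTL7A and 23.6 and 6.46 in wild-type cells. A second EGFR position (7:55221598–55222228) had 24.5 and 25.1 against 15.1 and 11.7, and a position upstream of EGFR (7:54849604–54850793) had 25.6 and 28.3 against 12.6 and 12.5. At these 3 positions both METTL7A replicates were above both wild-type replicates. At another EGFR position (7:55171681–55172525) they were not, with 22.9 and 32.2 against 28.4 and 7.07. A position in VOPP1, a gene of a vesicle-associated protein (7:55540545–55545821), had 28.7 and 22.7 against 24.6 and 8.24, which also overlapped.

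The start of CDK4 (12:58145769–58146554) had 26.3 and 36.6 in METTL7A and 13.3 and 17.7 in wild-type cells, so the replicates did not overlap. It was reproducible in both lists, at a global IDR of 1.16e-05 and 0.0163. The start of SLC26A10, an anion transporter family gene listed as a pseudogene in the GRCh38.p14 table (12:58013159–58016992), had 23.4 and 32.3 against 22.2 and 7.33. On chromosome 6 a position in ADTRP, which encodes a hydrolase of fatty acid esters (6:11770563–11772103), had 22.9 and 19.7 against 10.4 and 11. All 10 of the highest shared METTL7A peaks also had a peak in the parental METTL7A MYC-tag list, 9 in the parental wild-type MYC-tag list and 8 in the resistant wild-type IgG list. IgG is an isotype control that recognises no particular protein, and the METTL7A IgG list of resistant cells held 96 peaks, against 2529 in wild-type cells.

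Ranked by wild-type height, a ranking added after the values were seen, the 3 highest shared peaks lay at other genes of the CDK4 region. In AGAP2, a GTPase-activating protein gene, the wild-type values were 20.5 and 35.6 (12:58119244–58122062) and the METTL7A values 17 and 20. In B4GALNT1, a ganglioside synthase gene (12:58021249–58022920), they were 29.6 and 18.9 against 5.85 and 25.7. At the start of ARHGEF25, a guanine nucleotide exchange factor gene (12:58003824–58005813), wild-type cells had 20.4 and 17.5 and METTL7A cells 3.44 and 12.9. Both wild-type replicates were above both METTL7A replicates at AGAP2, by a narrow margin, and at ARHGEF25, and the replicates overlapped at B4GALNT1. Of the 10 highest by this ranking 6 were in the EGFR region, led by a position in EGFR (7:55228397–55229354) with 25.4 and 17.4 in wild-type and 16.3 and 37.8 in METTL7A cells. Over the 22 shared positions of the CDK4 region (57 to 59 Mb of chromosome 12) the METTL7A height was larger at 11 and smaller at 11, with a median difference of 0.205.

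Peaks of the METTL7A list without a wild-type match were seldom placed at the start of a listed gene. The highest was in VOPP1 (7:55559748–55561281, 19.3 and 23.9), where both parental wild-type lists and the parental METTL7A MYC-tag list also had a peak. The next lay upstream of EGFR (7:55058879–55059513, 16 and 14.5), where of the other lists only the parental METTL7A MYC-tag list had one, of height 24.2. Another lay further upstream (7:54955873–54956668, 13.7 and 14.2). Of the 10 highest METTL7A-only peaks, 4 were in the EGFR region, 8 had a peak in the parental METTL7A MYC-tag list, 2 in the resistant wild-type IgG list and 1 lay at the start of a listed gene. For 7 of the 10 no listed gene held the position.

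That start was of SNX16, a sorting nexin gene of endosomes on chromosome 8 (12.3 and 14.7 at 8:82753863–82754405), and no other list had a peak there. A peak in KDM6B, a histone H3 lysine demethylase gene (17:7744823–7745485), had 11.3 and 12.8, and the parental METTL7A MYC-tag list had 4.78 there. The position 7:112971420–112972238, with 11.3 in both replicates, was in no other list. A peak of 12.3 and 21.1 (6:11830468–11832319) lay upstream of ADTRP. Among the next 20 METTL7A-only peaks, a set chosen after their values were seen, were 4 in EGFR past its start, from 7:55101064–55101503 (11 and 13.6) to 7:55226449–55227432 (15.4 and 11). The set also held peaks in the potassium channel gene KCNJ12 (12.4 and 10.6), in the junctophilin gene JPH3 (14.1 and 10.3) and at the start of PIP4K2C (12:57984684–57985531, 10.1 and 16.1). PIP4K2C was the only listed gene start among those 20.

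Among the named peaks, wild-type-only ones lay at more starts of listed genes. Of the 10 highest, 5 were at such a start, against 1 of the 10 highest METTL7A-only peaks, and 4 against 1 among the next 20 of each list. Genes such as CACHD1 and SNX16 were listed only after these peaks were seen, and no share of starts over the whole lists was computed. These counts therefore describe the named peaks alone. At VSTM2A, which encodes a secreted protein with an immunoglobulin domain, the start peak (7:54609560–54610354) had 23.1 and 24.3, and that of TBK1 (12:64845526–64846351) had 18.3 and 29.8. Next to EGFR, the LANCL2 start (7:55433158–55434417), had 24.9 and 15.8. SEC61G (7:54826413–54827128) followed with 21.3 and 13, and CACHD1 (1:64935350–64936544) with 11.9 and 15.7. Both wild-type replicates were thus at 11.9 or more at each of these 5 starts, while the METTL7A list had no peak that overlapped them.

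The highest wild-type-only peak lay beyond LANCL2 (7:55516176–55518123, 27.6 and 24). Another, in HFM1, a meiotic helicase gene (1:91852813–91853107, 20.2 and 21.6), had a match of 16.2 in the parental METTL7A MYC-tag list. On chromosome 6 a peak near TMEM170B (6:11594597–11594923) had 13.5 and 16.3. Starts of SYDE2 and DTX3 (15.8 and 11.1, and 25.8 and 10.7) and of FANK1 and MDFIC (19.9 and 10.6, and 12.7 and 10.3) were among the next 20. Of the 10 highest wild-type-only peaks, 8 had a peak in the resistant wild-type IgG list, 7 in the parental wild-type MYC-tag list and 2 in the parental METTL7A MYC-tag list. The IgG heights were 17.5 at TBK1, 19.3 at LANCL2, 14.9 at SEC61G, 12.9 at VSTM2A and 4.05 at CACHD1. These starts were therefore matched peaks in wild-type cells with the control antibody as well. The IgG peaks at VSTM2A and CACHD1 were not reproducible, at a global IDR of 0.068 and 0.906.

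Counted over a list of 29 genes of the amplified regions and of EGFR signalling, 11 genes had a METTL7A peak in the gene or at its start and 16 a wild-type one. All 11 were among the 16, and 13 had neither. The starts differed more. Within 500 bp of the start, 2 genes had a METTL7A peak, CDK4 and ADTRP, and 11 had a wild-type peak. Besides those 2 they were EGFR, SEC61G, LANCL2, VSTM2A, B4GALNT1, TBK1, the caveolin gene CAV1, the cell death gene BCL2L11 and TMEM170B. CAV1 (12.6 and 4.57), BCL2L11 (4.63 and 9.18) and TMEM170B (3.83 and 30.4) were each low in 1 replicate. At a height of 5 or more the counts were 2 and 7, and without chromosome 7 they were 2 and 6 of 20 genes. Of all the start peaks on this list, 1 METTL7A and 6 wild-type ones were reproducible. No share over all gene starts was computed to set beside these counts.

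At these 29 starts the parental MYC-tag lists differed in the same way. Parental METTL7A MYC-tag had a peak at 2 of the 29 starts, again CDK4 and ADTRP, in a list of 2271 peaks. Parental wild-type MYC-tag had 10, in a list of 1005. Wild-type IgG had 12 in resistant and 9 in parental cells. The METTL7A IgG lists had 0 of 29 each, in lists of 96 and 70 peaks, too short to compare, so IgG gave no comparison of METTL7A with wild-type cells. The gene list was made with earlier results in view, so its counts describe these genes alone. The part that the wild-type IgG signal plays in the wild-type MYC-tag starts was not tested.

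**Figure D3:**
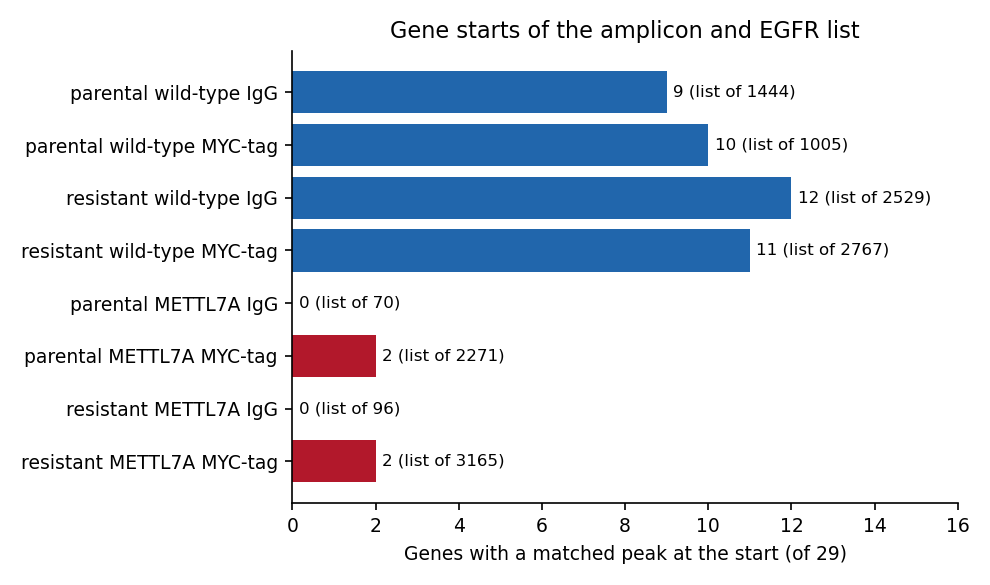
Number of the 29 genes of the amplified regions and EGFR signalling with a matched peak within 500 bp of the start (x axis), in each of the 8 lists (y axis), with each list's length in brackets. Blue bars are wild-type and red bars METTL7A-expressing cells; the 4 wild-type lists lie at 9 to 12 and the METTL7A lists at 0 to 2.

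EGFR showed this pattern within 1 gene. At its start wild-type cells had a peak of 14 and 6.4 (7:55085275–55088173), where the resistant wild-type IgG list had 23.2 and 58.6 and the METTL7A list had none. This wild-type MYC-tag peak was not reproducible, at a global IDR of 0.114. Past the start the lists were alike in number, with 50 METTL7A and 45 wild-type peaks centred in the gene, 26.6 and 23.9 per 100 kb. Of these, 37 METTL7A and 39 wild-type peaks overlapped the other list, and 25 and 14 were reproducible. The median height in the gene was 8.41 in METTL7A and 6.79 in wild-type cells. By single replicate over the whole region the medians were 10.1 and 9.72 in METTL7A and 13.9 and 6.96 in wild-type cells, so here too the METTL7A replicates lay between the wild-type ones.

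The region at 54 to 56 Mb of chromosome 7 held 153 METTL7A peaks (4.83%, 4.11 to 5.64) and 139 wild-type peaks (5.02%, 4.24 to 5.9). Its share of matched peaks did not separate the lists. Of the METTL7A peaks there 93 (60.8%) were shared, and of the wild-type peaks 92 (66.2%), against 8.21% and 9.43% of the whole lists. Reproducible peaks numbered 69 and 37. Upstream of EGFR the lists had 54 and 52 peaks, of which 28 and 29 were in one list only. Between EGFR and LANCL2 they had 16 and 17, and from the LANCL2 start on 33 and 25. Among peaks of height 5 or more the region's share was 10.7% in METTL7A and 20.3% in wild-type cells, since the METTL7A list had more such peaks elsewhere.

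**Figure D4:**
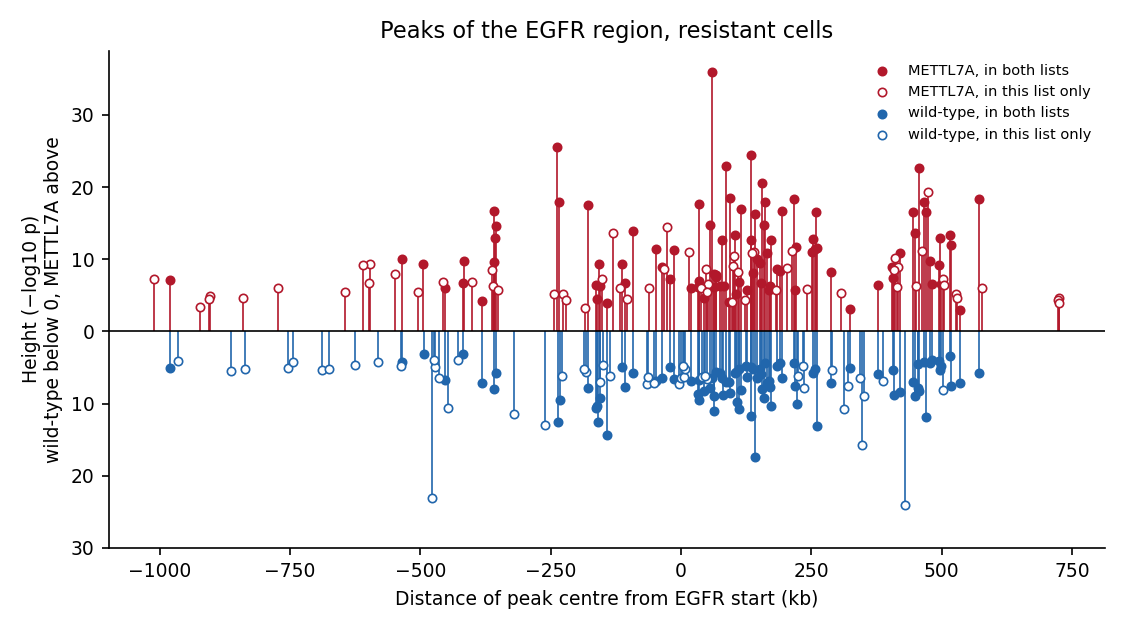
Height (y axis, −log10 p) of each peak of the EGFR region by the distance of its centre from the EGFR start (x axis, kb), with METTL7A above and wild-type below the line. Filled points overlap a peak of the other list and open points do not; the highest METTL7A peak (35.9) is shared, while the highest wild-type peaks (24 and 23.1) are open.

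Of the smaller clusters, 3 had similar counts in both lists and the stretch from CDK4 to MDM2 had fewer METTL7A peaks. The TMEM170B and ADTRP cluster on chromosome 6 (11 to 12 Mb) had 30 peaks in each list, 13 of them shared in each. The CDK4 region had 33 METTL7A and 30 wild-type peaks, with 22 shared in each. From there to MDM2, a gene for the ubiquitin ligase of p53 (59 to 70 Mb), the lists had 10 (0.316%, 0.152 to 0.58) and 22 (0.795%, 0.499 to 1.2). The arm around MET, the receptor gene for hepatocyte growth factor (85 to 120 Mb of chromosome 7), had 65 (2.05%) and 68 (2.46%). Neither list had a mitochondrial peak, and a count of 0 allows a share of up to 0.0948% of the METTL7A and 0.108% of the wild-type peaks, at 3 counts each.

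A stretch near the centromere of chromosome 7 stood apart. At 57 to 58 Mb lay 28 METTL7A peaks (0.885%, 0.589 to 1.28) and 4 wild-type peaks (0.145%, 0.0394 to 0.37), and 2 METTL7A peaks were shared. The parental METTL7A MYC-tag list had 26 peaks there and the resistant wild-type IgG list 4. The METTL7A peaks there had a median height of 5.18, against 4.49 over the whole list, and 15 of the 28 reached 5. The 2 highest, at 9.66, were reproducible. This stretch was chosen after its values were seen.

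A larger share of METTL7A than of wild-type peaks lay near chromosome ends. Within 5 Mb of the outermost peaks of each chromosome lay 1054 METTL7A peaks (33.3%, 31.7 to 35) and 596 wild-type peaks (21.5%, 20 to 23.1). Within 2 Mb the shares were 17.9% and 11.2%, and within 10 Mb 42.8% and 30.6%. At a height of 5 or more the difference was wider, at 31.1% and 15.2% within 5 Mb. Of these peaks 46 METTL7A (4.36%) and 47 wild-type (7.89%) were shared, against 8.21% and 9.43% of the whole lists. Only 8 of the 104 reproducible METTL7A and 1 of the 63 reproducible wild-type peaks lay there. Chromosome ends were taken as the outermost peaks over the 8 lists, since no chromosome lengths were used, and the distances were chosen after the data were seen.

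Over all matched peaks, a high share near the ends was not particular to METTL7A. The parental wild-type IgG list had 32% (29.6 to 34.5) within 5 Mb, the resistant wild-type IgG list 26.3% (24.6 to 28.1), the parental METTL7A MYC-tag list 26.7% (24.9 to 28.6) and the parental wild-type MYC-tag list 21.4% (18.9 to 24.1). The METTL7A share was thus about that of parental wild-type IgG and above that of resistant wild-type IgG. At a height of 5 or more it was 31.1%, above the other long lists. These had 24.2% in resistant wild-type IgG, 21.8% in parental wild-type IgG and 20.7% in parental METTL7A MYC-tag. Both wild-type MYC-tag lists had the lowest shares of the 6 long lists.

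**Figure D5:**
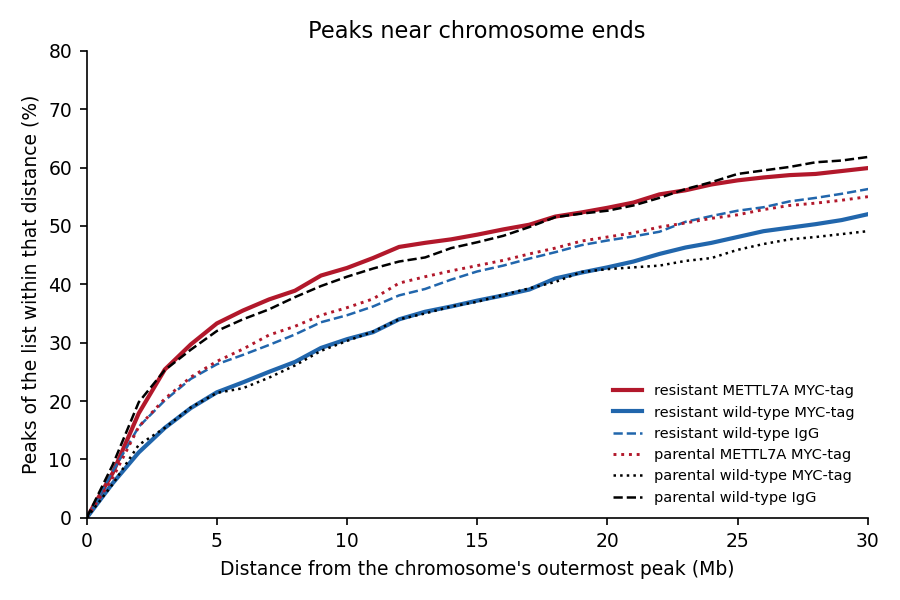
Share of each list's peaks (y axis, percent) within a given distance of the outermost peak of their chromosome (x axis, Mb). Solid lines are the 2 lists compared here, dashed lines wild-type IgG and dotted lines parental MYC-tag; at 5 Mb the resistant METTL7A line is at 33.3%, next to parental wild-type IgG at 32%, and the resistant wild-type line is at 21.5%.

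In windows of 1 Mb, 37 held 20 or more peaks over both lists, and 23 of these were in the outer 5 Mb. All 23 had more METTL7A than wild-type peaks, as did 13 of the other 14, so the excess itself was not particular to the outer windows. At least 2 times as many were found in 18 of the 23, against 5 of the 14. The outer windows with the most peaks were 88 to 89 Mb of chromosome 16, with 40 and 9 peaks, 2 to 3 Mb of chromosome 11, with 37 and 15, and 105 to 106 Mb of chromosome 14, with 35 and 16. By whole chromosome, the shares had separate intervals on 5 of 23, higher for METTL7A on 9, 16 and 17 and lower on 5 and X. Chromosome 16 held 7.93% of METTL7A and 4.77% of wild-type peaks, and chromosome 7 held 11.1% and 11.3%.

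Genes of MYC and its known targets were counted next, with no share over all genes to set beside them. Of 27 such genes, 4 had a METTL7A peak and 4 a wild-type peak, 3 of them in both, and 22 had neither. Start peaks were at 2 genes in the METTL7A and 1 in the wild-type list, a direction opposite to that of the other gene list. In the parental MYC-tag lists they were at 6 and 2 genes, of which 0 and 1 were reproducible. Between the 2 resistant lists CDK4, counted in this list too, was the only gene with a start peak in both. LDHA, the lactate dehydrogenase gene, had a METTL7A peak only (5.31 and 4.43), and MAX a wild-type peak only (5.47 and 6.16). At MYC, whose protein holds the stretch used as the tag, the METTL7A list had a peak at the start (7.97 and 7.29), and the wild-type list one in the gene (7.71 and 5.1). Neither was reproducible, at a global IDR of 0.302 and 0.445. METTL7A itself had no peak in either list, so these lists hold no check of the labels by the gene that was expressed.

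The peaks found in one list only recurred in different places of the series. Of 2905 METTL7A-only peaks, 313 (10.8%, 9.67 to 12) overlapped the parental METTL7A MYC-tag list and 94 (3.24%, 2.62 to 3.95) the resistant wild-type IgG list. Of 2506 wild-type-only peaks, 98 (3.91%, 3.19 to 4.75) overlapped the first and 265 (10.6%, 9.4 to 11.8) the second. At a height of 7 or more, 54 of 120 METTL7A-only peaks (45%, 35.9 to 54.3) had a parental METTL7A match and 12 (10%, 5.27 to 16.8) a wild-type IgG match. For 63 wild-type-only peaks of that height the counts were 13 (20.6%, 11.5 to 32.7) and 27 (42.9%, 30.5 to 56). Shared METTL7A peaks of 7 or more had both, 87 of 96 (90.6%) in the parental METTL7A list and 54 (56.2%) in wild-type IgG. The parental METTL7A list and the wild-type IgG list of the resistant cells thus matched the one-list peaks in opposite proportions, and the intervals overlapped only for wild-type-only peaks of 7 or more. The parental wild-type MYC-tag list separated them less, and at 1005 peaks it was shorter than those 2 lists, with 2271 and 2529. It matched 2.27% (1.76 to 2.88) of METTL7A-only and 3.55% (2.86 to 4.35) of wild-type-only peaks. At a height of 7 or more it matched 16.7% and 25.4%. Parental wild-type IgG matched 2.79% of METTL7A-only and 5.03% of wild-type-only peaks, and 12.5% and 23.8% at that height. Each class was defined by absence from the other list, and the part this plays in these matches was not tested.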

How the data were processed

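Peak lists of 4 samples in 2 groups were compared, each list joining 2 replicates. Heights and global IDR are −log10 p-values and −log10 IDR values, deposited by the authors in 20 columns a list. Per the submitters' processing notes, which give no role or order, the tools were MACS2 2.2.7.1, Bowtie2 2.4.2, bedtools 2.30, SAMtools 1.16, deepTools 3.5.1, FastQC and Trimmomatic, on GRCh37. The sources used here do not give the control of the peak caller or any removal of duplicates. Libraries were planned at 20 M paired-end reads, per the labels' protocols. Peak lists hold no read totals, so depth and its precision are unknown.

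Overlaps, intervals and figures were computed with Python 3.11.15, numpy 2.4.6, pandas 2.3.3, scipy 1.17.1 and matplotlib 3.10.9, and the overlap code was tested on simulated data with planted overlaps. The replicate columns were used as the file orders them. Shared positions pair each METTL7A peak with its highest wild-type partner. Named peaks are the 10 highest reproducible METTL7A peaks with a wild-type match and the 10 highest of each list without one, plus 2 gene lists. The members and lists were chosen with earlier results of these data known.

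No GRCh37 annotation was used here. Genes were placed by a hand-written list of 74 GRCh37 gene positions from general knowledge, so a peak's gene is only as good as that list. Against the GRCh38.p14 table, 67 of 74 gene lengths agreed within 10%, and 17 of 18 spacings between neighbouring starts within 1 kb, the largest difference being 5.81 kb. Genes other than those of the 2 lists were added to it after the peaks were seen, and other genes were not looked for, so counts of starts among the named peaks can be incomplete. Promoter sequences carry GRCh38.p14 coordinates and were not mapped to the peaks.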

Additional observations from a re-analysis of the deposited data

How the results depend on the processing

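No paired analysis was possible because each list joins its 2 replicates and the columns carry no sample number. Leaving out a replicate was possible only for heights. With 1 replicate each, at the same position in both files, the ratio of peaks of height 9 or more was 0.84 or 2.37. The median height difference at shared positions was then −0.863, a reversal, or 2.07. Pairing the replicates the other way gave −1.17 and 2.06. At a height of 9 or more in both replicates the median height difference was 3.47, and at a global IDR of 0.01 for the METTL7A peaks it was 8.15. Without chromosome 7, METTL7A peaks overlapped wild-type ones in 5.19% of matched and 43.3% of reproducible cases, and wild-type peaks METTL7A ones in 5.99% and 50%; 6 of 20 gene starts had a wild-type peak. With a gap of up to 1 kb the matched shares were 10.5% and 11.9%. At a height of 5 or more in both lists the wild-type matched share was 19.9%, the reproducible METTL7A share 52.9%, the ratio of peaks 2.28, the EGFR region's share ratio 0.526 and the wild-type gene starts 7. At 9 or more the matched shares were 17.3% and 33.3%, the reproducible shares 16.8% and 35.6% and the ratio of peaks 2.04. The share ratio near chromosome ends was then 2.45, on only 5 METTL7A peaks and 1 wild-type peak. At a global IDR of 0.01 the reproducible shares were 80% and 50% and the ratio of reproducible peaks 5.42 (65 and 12). Stricter thresholds leave fewer peaks to overlap; otherwise the cause was not tested. The remaining 40 values moved less than their interval, 1.5 times or the replicate spread, except the percentile difference, which was judged by its sign alone. Some of the 40 could not move. No list held overlapping lines to merge, and all reproducible peaks of the 2 lists were above a height of 5, so that height could not change their ratio. Alternatives on chromosome ends and gene starts were chosen after seeing the data.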
